A study of Mus musculus with 6 samples.

Results

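The subject is 10 genes of fatty acid synthesis and desaturation, taken by name: Acly, Acaca, Fasn, Elovl1, Elovl6, Scd1, Scd2, Fads1 and Fads2, which encode enzymes, and Srebf1, which encodes a transcription factor. All 10 were found among the 20756 genes of the table, and all 10 passed the filter on low values. They were measured in 6 mouse samples, of which 3 carry the control guide sgC and 3 carry sgPrkci/Prkcz, guides aimed at the genes of both atypical protein kinases C. All samples are labelled strain C57BL/6, tissue MTO (a name the labels leave unexplained) and untreated, and were grown in DMEM/F12-based medium with B-27 and 50 ng/ml of EGF. The labels also describe injection of edited cells under the skin of mice, while the table is marked in vitro, so whether any RNA came from tumors cannot be told from them. Transcripts were counted by 3′ tag sequencing, in which a read marks the end of a transcript. Replicates are called biological, but whether they are separate cultures, and whether the edited cells are a pool or a clone, is not given in the sources used here, so the p-values describe sample-to-sample spread that could be purely technical.

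Cells build fatty acids from acetyl-CoA. Acly makes cytosolic acetyl-CoA from citrate, Acaca carboxylates it to malonyl-CoA, and Fasn assembles palmitate from both. Elongases of the Elovl family lengthen the chain, stearoyl-CoA desaturases (Scd) put in the first double bond, and the Fads desaturases act on polyunsaturated chains from the diet. Srebf1 encodes SREBP1, the membrane-bound factor that, once cleaved, switches on most of these genes.

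Promoter windows of 7 members, 10 windows in all, were found in the RefSeq table of GRCm38.p6, each reaching from 250 bases before an annotated start to 50 bases after it. The windows of Fasn and Acly are shown because both enzymes act on the route to palmitate and both genes lie on chromosome 11. Capitals mark CCAAT, the box bound by NF-Y, and GGGCGG, the GC box bound by Sp1, on either strand. Fasn, chr11:120824498-120824797, minus strand, and Acly, chr11:100527951-100528250, minus strand, read as follows.
Fasn: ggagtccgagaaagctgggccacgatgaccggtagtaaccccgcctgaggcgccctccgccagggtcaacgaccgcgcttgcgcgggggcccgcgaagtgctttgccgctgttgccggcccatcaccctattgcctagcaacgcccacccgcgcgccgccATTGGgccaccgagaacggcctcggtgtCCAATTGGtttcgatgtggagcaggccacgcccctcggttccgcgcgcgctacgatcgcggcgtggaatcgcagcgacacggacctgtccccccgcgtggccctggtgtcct
Acly: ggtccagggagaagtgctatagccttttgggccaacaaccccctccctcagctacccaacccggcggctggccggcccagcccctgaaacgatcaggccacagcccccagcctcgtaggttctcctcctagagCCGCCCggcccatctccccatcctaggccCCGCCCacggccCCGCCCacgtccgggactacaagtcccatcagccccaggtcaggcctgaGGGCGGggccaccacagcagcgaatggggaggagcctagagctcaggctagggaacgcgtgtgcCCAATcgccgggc
The Fasn window held 3 CCAAT matches, a pair of which overlap at positions -62 to -55 from the start, and 0 GC boxes. The Acly window held 1 CCAAT match and 4 GC boxes. Of all 32851 windows in the table, 37.4% held CCAAT and 35.7% held GGGCGG. The sterol regulatory element, searched as TCACNCCAC on both strands, was in 1.24% of all windows, and the E-box CACGTG in 7.15%. Neither was matched in any of the 10 windows, which says only that these letters are not there. The Acaca window, at a start inside the gene, held none of the 4 motifs.

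The stearoyl-CoA desaturase transcripts Scd1 and Scd2 were higher in sgPrkci/Prkcz samples, and Fads1, Acaca and Fasn were lower. The other 5 genes, Acly, Elovl1, Elovl6, Fads2 and Srebf1, did not pass the test. Values are CPM, reads per gene scaled so that each sample sums to 1000000, fold changes are differences of log2(CPM + 1), sgPrkci/Prkcz minus sgC, and calls need a Benjamini-Hochberg adjusted p under 0.05 over all tested genes in limma. By this rule 2 of 10 members rose, against 11.4% of the 12207 genes tested, and 3 fell, against 23.8%. These 5 genes were also those whose groups did not overlap, 2 higher (15.0% of all tested genes) and 3 lower (30.0%). With median centring, which sets each sample's median to a common value, 3 members rose (19.2% of all tested genes) and 1 fell (12.9%), and with quantile normalization 2 rose (15.3%) and 1 fell (15.9%). On TMM-scaled CPM 3 rose (15.4%) and 2 fell (17.4%), and with the median of each chromosome removed 4 rose (17.5%) and 1 fell (11.9%). On reads recovered from the CPM, edgeR had 3 of 9 members risen (19.9%) and 2 fallen (18.2%), and DESeq2 had 2 risen (12.3%) and 1 fallen (8.89%). In bulk samples, fewer cells of a type and less RNA per cell cannot be told apart. The median log2 fold change of the members was -0.03, and that of all tested genes was -0.17.

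**Figure D1:**
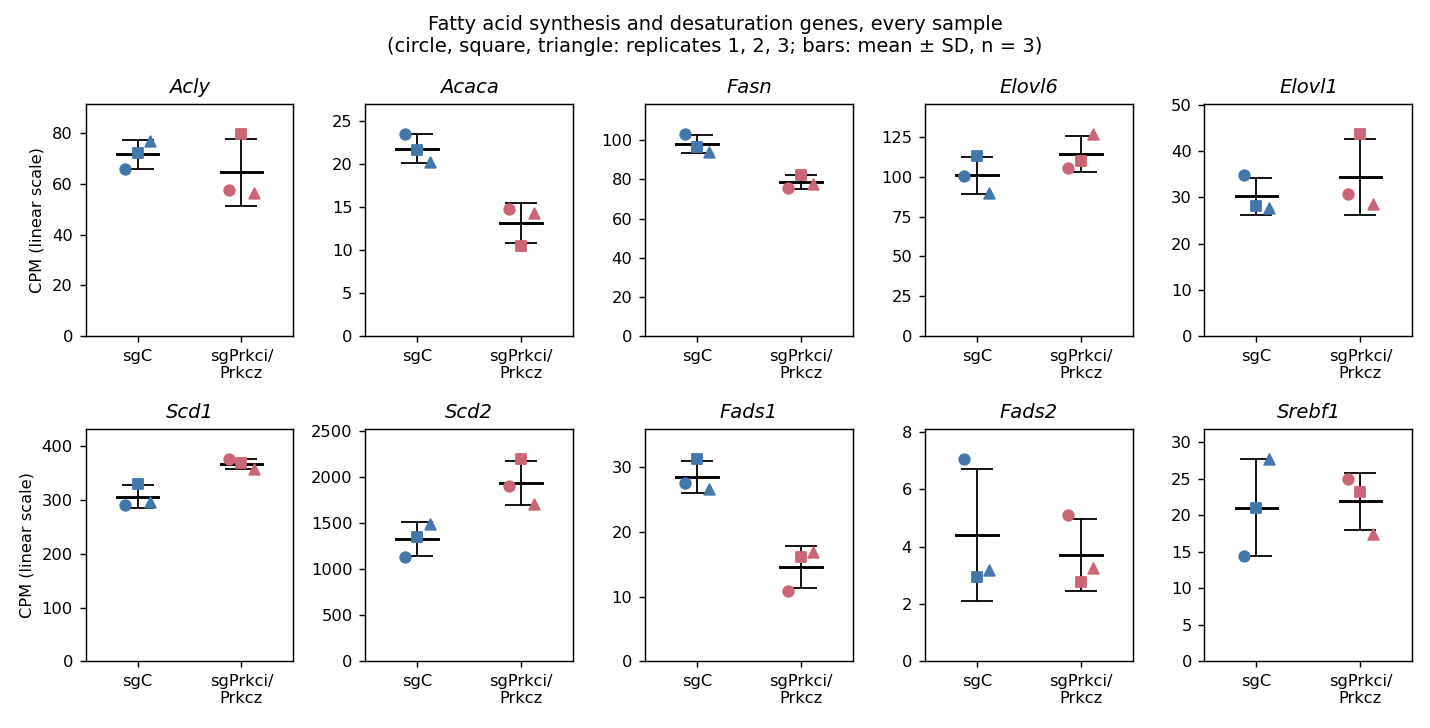
CPM of the 10 genes in each of 3 sgC and 3 sgPrkci/Prkcz samples, on linear axes that start at 0, with the mean and SD of each group (n = 3). The groups are apart for Acaca, Fasn, Scd1, Scd2 and Fads1 and overlap for the other 5 genes.

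Depth differed with genotype: sgC libraries held 2821908 to 3048170 reads and sgPrkci/Prkcz libraries 1543826 to 1808292. Of the guide targets, Prkcz fell (log2 fold change -1.24; limma, Benjamini-Hochberg adjusted p = 0.00967) and Prkci did not pass the test (-0.00; adjusted p = 0.986). The Prkcz call was lost without sgPrkci/Prkcz replicate 3 (limma, adjusted p = 0.0611), without a mean-variance trend (0.0600) and with DESeq2 (0.209). A 3′ tag away from an edited exon does not check an edit. All 9 epithelial markers looked for were tested, with summed levels of 3579 to 4130 CPM in sgC and 3809 to 4263 in sgPrkci/Prkcz, and Epcam, the epithelial adhesion molecule, had at least 1286 reads in every sample. Among these 9, Epcam (log2 fold change 0.52) and Vil1, which encodes the microvillus protein villin (0.97), rose, and Cdx2, an intestinal transcription factor (-1.03), and the keratin gene Krt18 (-0.21, but 0.29 with chromosome medians removed) fell. Of 7 adipocyte markers, 4 were in the table, and Adipoq, the adipocyte hormone adiponectin, was at 0 in every sample. The adipocyte sum was 14.1 to 17.0 CPM in sgC and 27.7 to 33.0 in sgPrkci/Prkcz, nearly all of it Pparg, which rose and which some epithelia also express. Fibroblast markers summed to at most 2.35 CPM (6 of 9 in the table, Lum at 0), hepatocyte markers to at most 1.14 (3 of 5), and endothelial markers to at most 0.670 (4 of 6, Pecam1 and Cdh5 at 0). Leukocyte markers (3 of 8) summed to 5.25 to 7.71 CPM in sgC and 7.74 to 14.3 in sgPrkci/Prkcz, nearly all of it Cd68, which did not pass the main test (0.53; limma, adjusted p = 0.167). Cd68, on chromosome 11, passed as higher with quantile normalization (0.77; limma, adjusted p = 0.0446) and with chromosome medians removed (1.00; 0.0109). It did not pass with median centring (0.73; limma, adjusted p = 0.0528) or TMM-scaled CPM (0.63; 0.0979). The part of these cell types in the results was not tested.

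Along the route from citrate to palmitate, the carboxylase and synthase transcripts fell and the lyase did not pass the test. Acaca (ENSMUSG00000020532, chromosome 11, 84129672 to 84401651, plus strand), the acetyl-CoA carboxylase of the cytosol, stood at 23.5, 21.7 and 20.2 CPM in sgC and at 14.8, 10.5 and 14.3 CPM in sgPrkci/Prkcz. Every edited sample was below every control, and the lowest, replicate 2, rested on 19 reads. The mean went from 21.8 ± 1.64 to 13.2 ± 2.33 CPM (SD, n = 3), a log2 fold change of -0.70 ± 0.20 (SE; limma, Benjamini-Hochberg adjusted p = 0.00843). The Acaca call was lost with median centring (-0.49; limma, adjusted p = 0.0641), quantile normalization (-0.49; 0.0680), chromosome medians removed (-0.22; 0.469) and DESeq2 (-0.58; 0.184).

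Fasn (ENSMUSG00000025153, chromosome 11, 120805846 to 120824547, minus strand), the multi-domain synthase that makes palmitate, stood at 103, 96.8 and 94.3 CPM in sgC and 75.6, 82.4 and 77.7 CPM in sgPrkci/Prkcz. The samples of each genotype lay close together and the groups did not overlap. Fasn fell from 98.1 ± 4.64 to 78.6 ± 3.50 CPM, 0.801 times the control mean, with a log2 fold change of -0.32 ± 0.11 (SE; limma, Benjamini-Hochberg adjusted p = 0.0236), but the sign turned to 0.16 (adjusted p = 0.328) with chromosome medians removed. The call was also lost on every scaling that took out the shift of all genes (median centring, -0.11, limma adjusted p = 0.478; quantile normalization, -0.25, 0.0797; TMM-scaled CPM, -0.20, 0.167), and with edgeR (-0.18, adjusted p = 0.222) and DESeq2 (-0.17, 0.470).

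Acly (ENSMUSG00000020917, chromosome 11, 100476353 to 100528000, minus strand), ATP citrate lyase, stood at 65.7, 72.2 and 76.9 CPM in sgC and 57.4, 79.6 and 56.4 CPM in sgPrkci/Prkcz. Edited replicate 2 was the highest of all 6 samples and the other edited samples were the lowest. The log2 fold change was -0.16, with a 95% interval of -0.44 to 0.11 (limma, Benjamini-Hochberg adjusted p = 0.361). That interval includes 0 and the value of Fasn, and Acly was at 0.04 with median centring.

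Neither elongase passed the test. Elovl6 (ENSMUSG00000041220, chromosome 3, 129532355 to 129638495, plus strand), which lengthens palmitate to stearate, stood at 101, 113 and 89.7 CPM in sgC and 106, 110 and 127 CPM in sgPrkci/Prkcz. The groups overlapped, and the log2 fold change was 0.18, with a 95% interval of -0.05 to 0.40 (limma, Benjamini-Hochberg adjusted p = 0.228). Once the shift of all genes was taken out, Elovl6 passed the test, at 0.38 with median centring (limma, adjusted p = 0.00755), 0.29 with TMM-scaled CPM (0.0382) and 0.37 with chromosome medians removed (0.0136), though not with quantile normalization (0.24; 0.101). On recovered reads it passed with edgeR (0.31; adjusted p = 0.0220) and did not with DESeq2 (0.32; adjusted p = 0.0907).

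Elovl1 (ENSMUSG00000006390, chromosome 4, 118428093 to 118432953, plus strand), an elongase of saturated very long chains, stood at 34.9, 28.2 and 27.6 CPM in sgC and 30.7, 43.7 and 28.5 CPM in sgPrkci/Prkcz. Edited replicate 2 was the highest sample and the rest overlapped. The log2 fold change was 0.16, with a 95% interval of -0.19 to 0.51 (limma, Benjamini-Hochberg adjusted p = 0.510). The 3′ end of Elovl1 overlaps that of the mitotic gene Cdc20, on the opposite strand, by 53 bases, and the strand setting of the counting is not given in the sources used here, so reads in that stretch cannot be assigned with certainty. Cdc20 itself fell from 75.6 ± 15.7 to 45.8 ± 14.1 CPM (log2 fold change -0.74; limma, Benjamini-Hochberg adjusted p = 0.00895; 0.0523 with median centring).

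The stearoyl-CoA desaturases carried the rises. Scd2 (ENSMUSG00000025203, chromosome 19, 44293674 to 44306864, plus strand), known in mice as the isoform of brain and of early life, was counted at 3392, 4129 and 4218 reads in controls and at 3359, 3965 and 2645 in the shallower edited libraries. As CPM these were 1137, 1355 and 1495 against 1908, 2193 and 1713, so that the lowest edited sample was above the highest control. Scd2 rose from 1329 ± 180 to 1938 ± 241 CPM, 1.46 times the control mean, with a log2 fold change of 0.55 ± 0.10 (SE; limma, Benjamini-Hochberg adjusted p = 2.68e-04). Among the 403 tested genes of chromosome 19, 90.3% had a lower fold change. The call was lost with limma without a mean-variance trend (adjusted p = 0.0511).

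Scd1 (ENSMUSG00000037071, chromosome 19, 44394455 to 44407879, minus strand), the main isoform of mouse liver and fat, stood at 290, 330 and 297 CPM in sgC and 375, 368 and 356 CPM in sgPrkci/Prkcz. The edited samples lay within a narrow range above all controls. The mean went from 305 ± 21.3 to 366 ± 9.43 CPM, 1.20 times the control, with a log2 fold change of 0.26 ± 0.08 (SE; limma, Benjamini-Hochberg adjusted p = 0.0129). The call was lost with limma without a trend (adjusted p = 0.146) and without sgPrkci/Prkcz replicate 1 (0.25; adjusted p = 0.0651), and with median centring the rise was 0.47 (adjusted p = 4.94e-05).

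The Scd genes form a cluster on chromosome 19 and resemble each other in coding sequence. Annotated transcripts of Scd1 and Scd2 share 79 stretches of 75 bases, the read length, and in the longest transcripts the closest of these ends 3863 bases from the 3′ end in Scd1 and 4063 bases in Scd2. Reads near the 3′ end of these transcripts therefore differ between both genes, whereas a shorter annotated Scd1 transcript brings a shared stretch to 325 bases from its end. The per-sample log2 ratio of Scd1 to Scd2 averaged -2.11 ± 0.19 in sgC and -2.39 ± 0.16 in sgPrkci/Prkcz. The groups overlapped in this ratio, and the difference was -0.28 (exact two-sided permutation test, p = 0.2). With 3 against 3 samples this test cannot go below 0.1, so it cannot settle whether Scd2 rose more than Scd1.

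Fads1 showed the largest fall among the 10 genes, and its neighbour Fads2 was too low to read. Fads1 (ENSMUSG00000010663, chromosome 19, 10182888 to 10196877, plus strand), the delta-5 desaturase of arachidonic acid synthesis, was counted at 82, 95 and 75 reads in controls and at 19, 29 and 26 in edited samples. These were 27.5, 31.2 and 26.6 CPM against 10.8, 16.0 and 16.8 CPM, with every edited sample well below every control. The mean went from 28.4 ± 2.43 to 14.6 ± 3.28 CPM, 0.512 times the control, with a log2 fold change of -0.94 ± 0.20 (SE; limma, Benjamini-Hochberg adjusted p = 4.19e-04). Only 4.96% of the tested genes of chromosome 19 had a lower fold change, and the fall passed the test in all 20 alternatives, at -0.74 to -1.05 on the log2 scale.

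Fads2 (ENSMUSG00000024665, chromosome 19, 10062765 to 10101746, minus strand), the delta-6 desaturase that opens the same pathway, was counted at 21, 9 and 9 reads in controls and at 9, 5 and 5 in edited samples. These were 7.04, 2.95 and 3.19 CPM against 5.11, 2.77 and 3.24. Replicate 1 was the highest in both groups, though the labels give the groups no shared replicate numbers. The log2 fold change was -0.15, with a 95% interval of -0.86 to 0.56 (limma, Benjamini-Hochberg adjusted p = 0.778), an interval wide at this depth, whose lower end is near the value of Fads1. The log2 ratio of Fads1 to Fads2 averaged 2.52 ± 0.62 in sgC and 1.73 ± 0.68 in sgPrkci/Prkcz, a difference of -0.79 (exact two-sided permutation test, p = 0.3, where the smallest p possible is again 0.1). Fads1 and Fads2 transcripts share 0 stretches of 75 bases.

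The regulator Srebf1 (ENSMUSG00000020538, chromosome 11, 60199089 to 60222581, minus strand) varied more within genotypes than between them. It stood at 14.4, 21.0 and 27.6 CPM in sgC and 25.0, 23.2 and 17.5 CPM in sgPrkci/Prkcz, with the lowest and the highest sample both in the control group. The log2 fold change was 0.09, with a 95% interval of -0.34 to 0.52 (limma, Benjamini-Hochberg adjusted p = 0.787), and 0.56 with chromosome medians removed (adjusted p = 0.0493). Its 3′ end overlaps that of Rai1, a gene on the opposite strand, by 109 bases. Rai1 fell from 46.0 ± 5.38 to 35.1 ± 1.66 CPM (-0.38; limma, Benjamini-Hochberg adjusted p = 0.0421), but stood at 0.10 with chromosome medians removed (adjusted p = 0.663). That call was also lost with median centring (limma, adjusted p = 0.394), quantile normalization (0.209), TMM-scaled CPM (0.171) and edgeR (0.196), without sgC replicate 2 (0.237) or 3 (0.0636) and without sgPrkci/Prkcz replicate 1 (0.0705) or 2 (0.106). Without the strand setting, Srebf1 reads in that stretch are uncertain. The mRNA level does not show how much of the protein was cleaved and active.

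**Figure D2:**
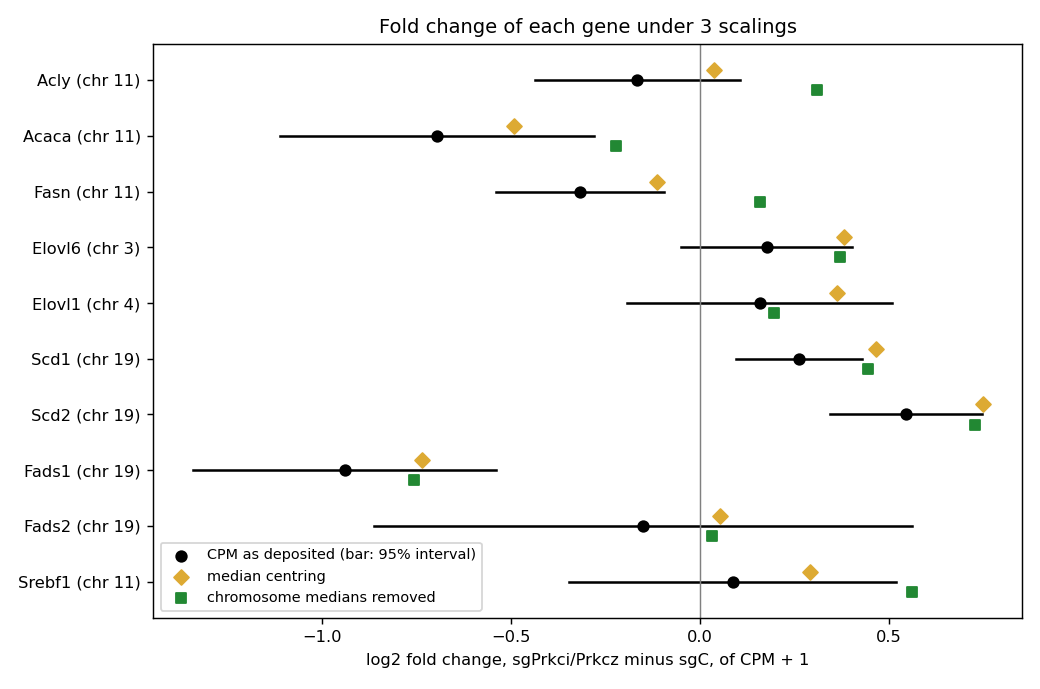
Difference of log2(CPM + 1), sgPrkci/Prkcz minus sgC, for each gene, with its limma 95% interval (black), after median centring (yellow) and after the median of each chromosome was removed (green). Fads1 stays below 0 and Scd1 and Scd2 above 0 in all 3, while Fasn turns from -0.32 to 0.16 and Acly from -0.16 to 0.31 with chromosome medians removed.

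Chromosome 11 carries 4 of the 10 genes, Acly, Acaca, Fasn and Srebf1, and its genes were lower in sgPrkci/Prkcz as a group. The median log2 fold change of its 966 tested genes was -0.44, the lowest of 21 chromosomes compared (the mitochondrial one included). Chromosomes 8 and 15 were next, at -0.40 and -0.39. Of the 966 genes of chromosome 11, 45.8% fell and 3.42% rose. Against these genes Acaca lay in the lower part and the other members above the middle: 29.2% of chromosome 11 genes had a lower fold change than Acaca, 63.0% a lower one than Fasn, 75.7% than Acly and 88.1% than Srebf1. The 100 tested genes nearest to Acaca had a median of -0.57, and 57 of them fell. Near Acly the median was -0.40 with 42 of 100 fallen, near Srebf1 -0.52 with 44 of 100, and near Fasn, which lies toward the chromosome end, -0.51 with 23 of 62. The shift of these neighbours was taken out of each sample in 2 ways, both chosen after the data were seen. With the median deviation of the neighbours from their own means removed, Acaca stood at -0.13 (limma, adjusted p = 0.693), Fasn at 0.12 (0.471) and Acly at 0.22 (0.221), while Srebf1 passed the test at 0.57 (0.0418). With the median level of the neighbours removed instead, which took out more than their median fold change (-0.70 for Acaca and -0.68 for Fasn), Acaca stood at 0.0071 (limma, adjusted p = 0.987), Fasn at 0.37 (0.0296) and Srebf1 at 0.68 (0.0192). Fasn thus passed as higher in the second way and not in the first. Chromosome 11 genes as a group, Acaca and Fasn were all lower in sgPrkci/Prkcz, while Acly and Srebf1 did not pass the main test. The part of the chromosome shift in the Acaca and Fasn levels was not tested beyond these values.

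The genes of chromosome 19 showed no such shift (median -0.07, 17.4% fallen and 14.9% risen), and there the members spread widely. The 100 nearest genes had medians of -0.07 around Fads1 and -0.12 around Scd2. With the median deviation of these neighbours removed, Fads1 was at -0.86 (limma, adjusted p = 8.56e-04), Scd2 at 0.64 (adjusted p = 3.12e-07) and Scd1 at 0.34 (adjusted p = 0.00243).

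**Figure D3:**
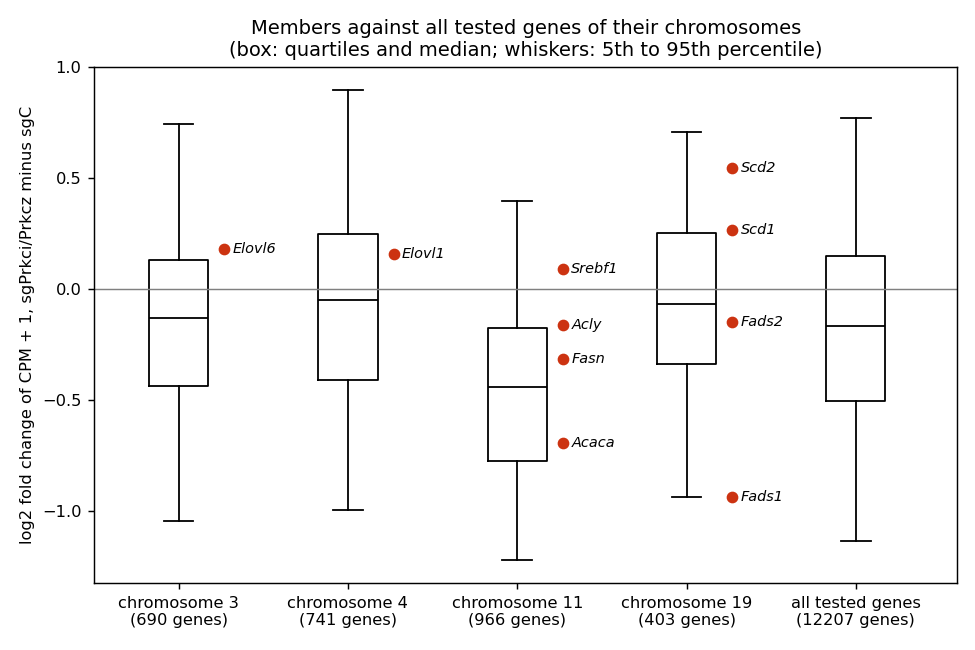
Differences of log2(CPM + 1), sgPrkci/Prkcz minus sgC, of the 10 genes (red points) beside boxes of all tested genes on the same chromosome and of all 12207 tested genes. The chromosome 11 box is the lowest, with a median of -0.44, and of its 4 members only Acaca lies below that median.

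Other lipid genes were counted by list. Of 10 tested genes for the supply of acetyl-CoA and NADPH and its carboxylation, 5 rose and 0 fell (limma; 0 before adjustment, at p under 0.05, and 0 by edgeR), with a list median of 0.42, where all genes had 11.4% risen and 23.8% fallen. Idh1, the cytosolic NADPH-making isocitrate dehydrogenase, rose from 65.1 ± 5.07 to 121 ± 10.7 CPM (0.88). Acss2, which makes acetyl-CoA from acetate, rose from 35.9 ± 1.72 to 64.4 ± 6.47 CPM (0.82), and Mid1ip1, an activator of acetyl-CoA carboxylase, from 115 ± 9.47 to 174 ± 9.87 CPM (0.60). The citrate carrier Slc25a1 rose by 0.36 on the log2 scale. Acacb, the mitochondrial carboxylase, rested on 1, 5 and 5 control reads and on 7, 13 and 3 edited reads (1.21; limma, Benjamini-Hochberg adjusted p = 0.0212), and its call was lost without sgC replicate 1 (adjusted p = 0.122) and without sgPrkci/Prkcz replicate 1 (0.0570) or 2 (0.154). The Acacb call was also lost at equal depth (0.81; limma, adjusted p = 0.179), without a trend (0.0933) and with DESeq2 (0.0612). The Slc25a1 call was lost without sgC replicate 2 (adjusted p = 0.0992), without sgPrkci/Prkcz replicate 2 (0.117) and at equal depth (0.211). Without sgPrkci/Prkcz replicate 2 the list had 3 risen, where 1191 of all 11953 tested genes rose. It also had 3 risen at equal depth (1240 of 12075) and with limma without a trend (909 of 12207). With median centring 7 rose, against 19.2% of all tested genes.

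Of 15 other elongation and desaturation genes 2 rose and 5 fell, with a median of -0.29, shares near those of all tested genes (11.4% and 23.8%). Degs1, the dihydroceramide desaturase, rose from 44.0 ± 12.1 to 141 ± 8.64 CPM (1.69), and Hacd1, a dehydratase of the elongation cycle, from 37.9 ± 2.33 to 86.3 ± 3.08 CPM (1.17). Its relative Hacd4 fell from 15.7 ± 1.71 to 1.62 ± 1.02 CPM (-2.76; limma, Benjamini-Hochberg adjusted p = 7.53e-08). Fads3, a desaturase-like gene next to Fads2, fell from 24.1 ± 5.08 to 12.8 ± 4.77 CPM (-0.90; limma, Benjamini-Hochberg adjusted p = 0.00259). Its call was lost with limma without a trend (adjusted p = 0.0551) and with DESeq2 (0.0795). Scd3, the isoform next to Scd2, had 13, 13 and 11 reads against 1, 2 and 2, going from 4.17 ± 0.243 to 0.990 ± 0.377 CPM (-1.40; adjusted p = 0.00304). The Scd3 call was lost with DESeq2 (adjusted p = 0.112). Scd3 thus moved opposite to Scd1 and Scd2 by the main test. With median centring 3 of the 15 rose and 3 fell, against 19.2% and 12.9% of all tested genes. Without sgC replicate 2 there were 3 fallen, where 1999 of all 11965 tested genes fell.

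Of 14 regulators of the SREBP, LXR and ChREBP factors 3 rose and 4 fell, with a median of 0.08. The fallen share is near the 23.8% of all tested genes, and 11.4% of those rose. Insig1 and Insig2, which hold SREBP in the endoplasmic reticulum, rose from 52.7 ± 3.78 to 69.4 ± 9.93 CPM (0.38) and from 68.8 ± 4.91 to 102 ± 9.78 CPM (0.57). Lpin1, a phosphatidate phosphatase that also restrains SREBP, rose from 45.2 ± 4.61 to 79.7 ± 5.56 CPM (0.81). Scap, the escort that carries SREBP to the Golgi, fell from 32.6 ± 3.88 to 20.8 ± 6.82 CPM (-0.67). The Scap call was lost with median centring (limma, adjusted p = 0.0781), quantile normalization (0.0505), chromosome medians removed (0.0513) and limma without a trend (0.112). It was also lost with DESeq2 (adjusted p = 0.207) and without sgPrkci/Prkcz replicate 3 (limma, adjusted p = 0.101), whose 20 reads were the fewest. Mbtps1, the protease that makes the first cut, fell (-0.57), as did Mlx, the partner of ChREBP (-0.72), both on chromosomes with a low median (8 and 11), and both calls were lost with chromosome medians removed (limma, adjusted p = 0.384 and 0.221). Trib3, a pseudokinase reported to lower acetyl-CoA carboxylase protein in fat, fell from 95.2 ± 14.6 to 19.1 ± 5.20 CPM (-2.29). Srebf2, the factor of cholesterol synthesis, stood at 228 ± 25.9 and 268 ± 43.1 CPM (0.23; limma, adjusted p = 0.0889), passing with median centring (0.43; 0.00153). Mlxipl, which encodes ChREBP, had 1 read in sgC and 2 in sgPrkci/Prkcz. The Insig1 call was lost at equal depth (limma, adjusted p = 0.114), without sgC replicate 1 (0.0609) or 3 (0.0507) and without sgPrkci/Prkcz replicate 2 (0.142).

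Cholesterol synthesis genes, most of them targets of SREBP2, gave 11 of 23 risen and 0 fallen (limma; 1 before adjustment, 0 by edgeR), with a median of 0.27, against 11.4% and 23.8% of all tested genes. Hmgcs1, a synthase early in the pathway, rose from 589 ± 29.3 to 1167 ± 42.9 CPM (0.99), and Sc5d, a sterol desaturase, from 222 ± 12.6 to 332 ± 8.39 CPM (0.58). The fatty acid members had 2 risen and 3 fallen of 10, and the difference between these lists was not tested.

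Of 27 genes of fatty acid activation and glycerolipid synthesis 6 rose and 8 fell (median -0.15), against 11.4% and 23.8% of all tested genes. With median centring 8 rose and 3 fell, against 19.2% and 12.9%. Without sgC replicate 2 there were 5 fallen, where 1999 of all 11965 tested genes fell. Acsl4, which activates arachidonic acid, rose from 159 ± 16.5 to 411 ± 3.72 CPM (1.37; limma, Benjamini-Hochberg adjusted p = 6.74e-13), while Fads1, which helps make that fatty acid, fell. Acsl3 (0.71) and the phospholipid-making transferase Cept1 (0.77) rose as well. The acyltransferases Lpcat1 (-1.18), Agpat5 (-0.92) and Agpat2 (-0.86) fell. In the mitochondrial synthesis pathway 2 of 8 genes fell, near the 23.8% of all tested genes: Mecr (-1.17) and Acsf3 (-1.18), while 0 rose (limma; 0 before adjustment, 0 by edgeR). Acsf3 had at most 11 reads in any sample and lost its call in 13 alternatives, among them without sgC replicate 1 (limma, adjusted p = 0.127) or 3 (0.0794) and without sgPrkci/Prkcz replicate 1 (0.150) or 2 (0.0610), and the Mecr call was lost with DESeq2 (adjusted p = 0.142) and at equal depth (0.0645).

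Of 24 fatty acid oxidation genes 2 rose and 3 fell, against 11.4% and 23.8% of all tested genes. The risen genes were Ppargc1a, a coactivator of mitochondrial genes (0.81), and Acadl, a long-chain dehydrogenase (0.68). Etfb (-0.56), Etfdh (-0.57) and Ppard (-0.40) fell, all lost with median centring (limma, adjusted p = 0.0810, 0.161 and 0.237), which gave 7 risen and 0 fallen in this list (1 fallen by edgeR), against 19.2% and 12.9% of all tested genes. Without sgC replicate 2 these falls were lost as well (adjusted p = 0.0749, 0.156 and 0.0734), and that of Etfdh without sgPrkci/Prkcz replicate 1 (0.116). Of 11 tested genes of uptake and lipid droplets 6 rose and 1 fell, against 11.4% and 23.8% of all tested genes. This list had 4 risen without sgC replicate 2 or without sgPrkci/Prkcz replicate 1 or 3. With limma without a trend 3 rose (909 of all 12207 tested genes), and with median centring 7 rose (19.2%). The fall by the main test was in Plin2, the coat protein of lipid droplets, which went from 54.8 ± 4.85 to 21.7 ± 4.15 CPM (-1.31; limma, Benjamini-Hochberg adjusted p = 2.44e-07). Hilpda, an inhibitor of lipolysis, rose from 159 ± 16.3 to 214 ± 26.1 CPM (0.42), Abhd5, an activator of the triglyceride lipase, from 40.9 ± 7.80 to 58.0 ± 1.69 CPM (0.51), and the fatty acid binding protein gene Fabp5 from 1.70 ± 0.607 to 7.24 ± 3.80 CPM (1.53).

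**Figure D4:**
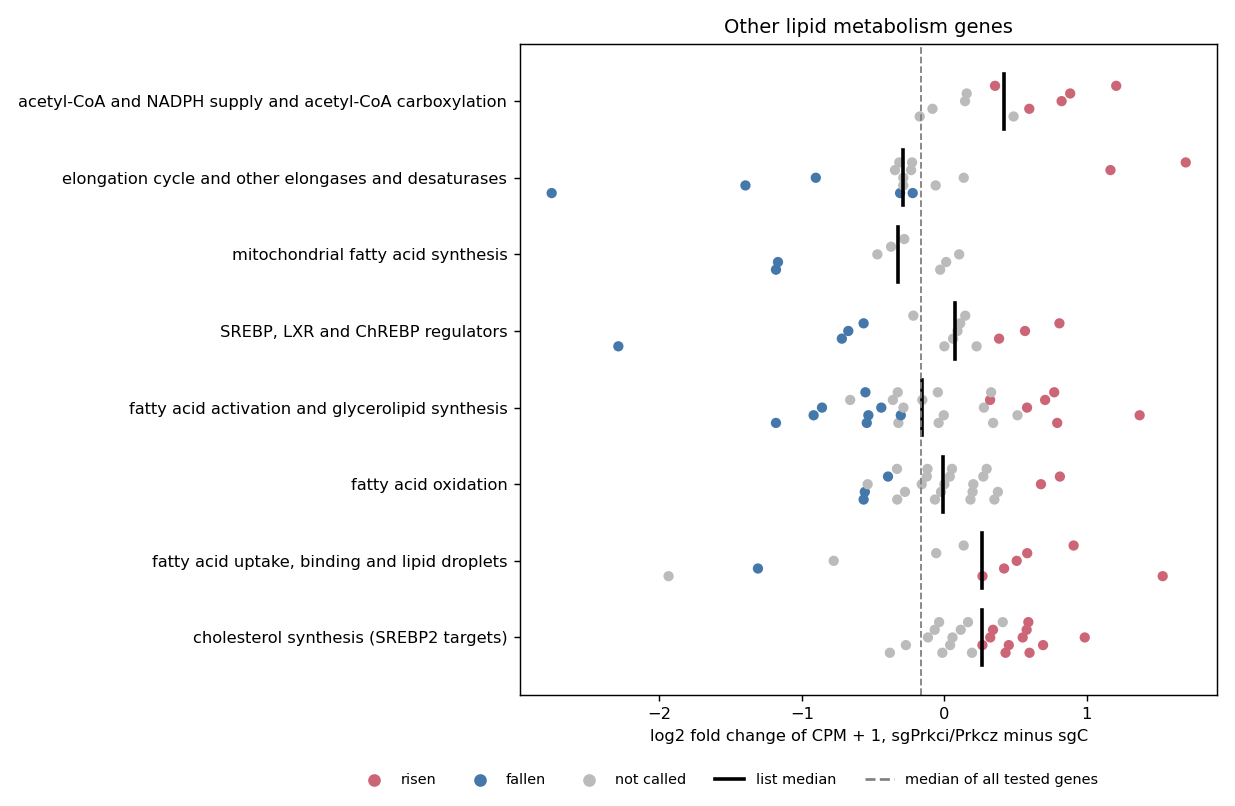
Difference of log2(CPM + 1), sgPrkci/Prkcz minus sgC, of each tested gene in 8 lists of lipid metabolism, coloured by call, with the list median (black bar) and the median of all tested genes (dashed line, -0.17). Cholesterol synthesis and acetyl-CoA and NADPH supply have rises and 0 falls (limma), the other lists except mitochondrial synthesis have both, and with median centring oxidation has 7 rises and 0 falls.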

How the data were processed

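Per the labels' protocols, RNA was extracted with Trizol, 3′ tag libraries (QuantSeq FWD, optional molecular identifiers) were made from 200 ng of total RNA, and single ends of 75 bases were read. The authors deposited CPM values for 20756 genes, named by Ensembl identifier. Each column summed to 1000000. Coordinates are on GRCm38, the build named in the submitters' processing notes. The sources used here do not give the aligner, counter, strand setting or use of identifiers. Symbols and coordinates came from GENCODE M21 (20675 identifiers matched). Samples were grouped by genotype label. Although the series' design text mentions tumors and a larger replicate number, the labels list 3 samples a genotype and the table is marked in vitro.

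CPM values were whole multiples of 1 read's worth for 100% of values (relative tolerance 1e-06), so reads were recovered. One read was worth 0.328 to 0.648 CPM. The test was limma 3.58.1 (R 4.3.3; mean-variance trend, robust) on log2(CPM + 1), for genes at 1 CPM or more in 3 or more samples, with genotype as the single factor and Benjamini-Hochberg adjustment. This scale understates the change of low genes. Ratios of gene pairs were compared by exact permutation tests (scipy 1.17.1). Alternatives were edgeR 4.0.16 (3754 genes called) and DESeq2 1.42.0 on recovered reads, other scalings, filters and pseudocounts, thinning to 1543826 reads, and each sample left out. Chromosome medians were those of log2 levels, removed per sample. The fits were tested on simulated data. No shift of all genes or of a chromosome was built into these data, so that test does not bear on such shifts.

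The members, the lists and the tests were chosen with earlier results of these data known. Named genes were the members, the guide targets, Srebf2, Scap, Insig1, Mlxipl and Acacb, and up to 3 called genes per direction of each list, or every called gene where a list had 5 or fewer. Cdc20 and Rai1 were named for their overlap with members. One gene that this rule names is not reported here.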

Additional observations from a re-analysis of the deposited data

How the results depend on the processing

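Of 4300 genes called, 1391 rose and 2909 fell. Median centring (2344 and 1580), quantile normalization (1869 and 1936) and TMM-scaled CPM (1874 and 2130) moved this split, and the median log2 fold change of all genes went from -0.17 to 0.04, -0.01 and -0.06. DESeq2 called 2527 genes. The members risen, 2 by the main test, were 4 with chromosome medians removed, 5 with the median level of 100 neighbouring genes removed, 4 with their median deviation removed and 0 with limma without trend (1, Scd2, at an unadjusted p under 0.05, and 3 with edgeR). Of all tested genes, 2125 of 12175 rose with chromosome medians removed and 909 of 12207 with limma without trend. With the neighbours' level removed 1847 of 12154 rose, and with their deviation removed 1854 of 12154. The members fallen, 3 by the main test, were 1 with quantile normalization, median centring, chromosome medians removed, either removal of neighbours and DESeq2. Of all 12154 genes tested in the removals of neighbours, 1365 fell with their level removed and 1630 with their deviation removed. Leaving out each sample gave 1 to 2 members risen and 2 to 3 fallen. Of all tested genes it called 3079 to 3978, with 1080 to 1286 risen and 1999 to 2795 fallen. The Scd1 to Scd2 difference then ranged from -0.39 to -0.19 and the Fads1 to Fads2 difference from -1.14 to -0.40. Fasn turned to 0.16 with chromosome medians removed 0.12 with the neighbours' deviation removed and 0.37 with their level removed, and Acaca to 0.0071 with the latter. The Fasn call was also lost without sgC replicate 1 (limma, adjusted p = 0.0791), sgC replicate 2 (0.0621) and sgPrkci/Prkcz replicate 1 (0.0808). Limma without a trend lost it as well (adjusted p = 0.0902). Median centring takes out a shift shared by all genes, and removal of chromosome medians takes out a shift shared by a chromosome. Why calls changed or were lost, with scaling or otherwise, was not tested. Fads2 had 5 to 21 reads a library. No paired analysis was possible because the labels give the groups no shared replicate numbers.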
